A study of Mus musculus with 14 samples.

Results

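The Notch receptors, their ligands and the receptor-cutting protease Adam10 were followed through 14 thymic lymphomas. Every probe set of the array that named 1 of 8 genes (Notch1, Notch2, Notch3, Notch4, Jag1, Jag2, Dll1 and Adam10) and no other gene was taken, which gave 14 of the 18264 probe sets in the table. The array has 16602 probe sets that name 1 gene, for 10254 genes. All 8 genes were found, and none of their probe sets was shared with another gene.

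Each tumour came from a mouse homozygous for the p53 R270H mutation (p53R270H/R270H), so the controls carry the mutation too and no tumour has wild-type p53. There were 5 tumours from Hif1a+/+ mice, 5 from heterozygous Hif1a+/- mice and 4 from Hif1aKI/+ mice with 1 knock-in allele, whose content the labels do not state. The strain was a mixed C57BL/6-129/SvEvTac background for all. Mice were kept until breathing became laboured and the tumour was then taken, so the groups share no fixed age, and neither age nor sex is labelled. The study looked for expression differences between these genotypes that might explain how often and how early lymphomas arose. The tumours are whole tissue, in which fewer cells of a type and less RNA per cell cannot be told apart. The labels call the tumours of a group biological replicates.

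Notch receptors sit in the cell membrane and are activated by Delta-like or Jagged ligands on a neighbouring cell. Ligand binding exposes the receptor to Adam10, after which gamma-secretase releases the intracellular domain, which enters the nucleus and joins the DNA-binding protein Rbpj at target genes such as Hes1, Dtx1 and Ptcra. Notch1 is required for thymocytes to enter the T lineage, Notch3 is itself a target of Notch1 in thymocytes, and activating Notch1 mutations are common in mouse thymic lymphoma. The array measures transcript, so it does not show cleavage or activity of a receptor.

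The promoters of Notch1, Notch3 and Jag2 are shown because Notch1 and Notch3 varied together over the tumours and Jag2 was the member with the smallest p between genotypes. They run from 250 bases before to 50 bases after the gene start in the RefSeq annotation of GRCm38.p6, and all 3 genes lie on the minus strand. The windows are chr2:26503773-26504072 for Notch1, chr17:32166841-32167140 for Notch3 and chr12:112929446-112929745 for Jag2. Capitals mark the core letters bound by HIF (ACGTG or GCGTG, read on either strand, so that CACGT and CACGC are the reverse complements).
Notch1: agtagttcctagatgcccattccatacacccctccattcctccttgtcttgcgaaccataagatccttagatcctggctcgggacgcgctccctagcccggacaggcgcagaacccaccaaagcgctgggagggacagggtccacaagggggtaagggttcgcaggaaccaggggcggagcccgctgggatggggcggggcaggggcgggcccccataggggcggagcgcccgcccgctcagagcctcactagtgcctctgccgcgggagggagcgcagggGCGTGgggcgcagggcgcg
Notch3: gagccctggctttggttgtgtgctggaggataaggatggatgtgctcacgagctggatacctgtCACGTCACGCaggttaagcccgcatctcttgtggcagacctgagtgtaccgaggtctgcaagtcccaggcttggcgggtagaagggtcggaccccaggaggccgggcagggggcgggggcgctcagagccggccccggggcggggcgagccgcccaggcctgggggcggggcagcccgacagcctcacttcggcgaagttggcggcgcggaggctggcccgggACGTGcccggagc
Jag2: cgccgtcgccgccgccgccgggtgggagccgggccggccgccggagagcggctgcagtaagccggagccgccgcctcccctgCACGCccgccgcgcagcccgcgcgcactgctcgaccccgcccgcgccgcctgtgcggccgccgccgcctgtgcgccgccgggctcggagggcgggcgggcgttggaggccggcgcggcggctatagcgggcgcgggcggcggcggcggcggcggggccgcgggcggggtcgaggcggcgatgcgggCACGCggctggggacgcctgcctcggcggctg

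The HIF core letters were found 1 time in the Notch1 window, 3 times in the Notch3 window and 2 times in the Jag2 window. A match was also present in each of the other windows of the 8 genes, 9 in all because Dll1 has more than 1 start. Of 32851 promoters of the same length, 43.8% hold such a match. The 9 windows consist of G and C for 55.7% to 86.0% of their bases, and ACGTG and GCGTG each contain CG. The background was not matched for this, so whether the members hold more matches than promoters of like content was not tested. The core letters of the Rbpj site (TGGGAA, both strands) were in none of the 9 windows and in 25.6% of all promoters. Jag2 shares its chromosome with Hif1a: it lies at chr12:112907803-112929812 and Hif1a at chr12:73901324-73947554, 38.96 Mb apart. The other members are on other chromosomes, with Notch1 at chr2:26457902-26503822, Jag1 at chr2:137081451-137116520, Notch2 at chr3:98013538-98150367, Adam10 at chr9:70678944-70780229, Dll1 at chr17:15367354-15376932, Notch3 at chr17:32120820-32166896 and Notch4 at chr17:34564286-34588543.

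All values are log2 signals, so a step of 1 is a doubling of signal. The values fall into a low mode around 2.11 and a broad upper mode, and the lowest point between the modes, 4.41, was taken as the limit of background; 32.6% of all probe sets had a mean below it. Array medians lay between 7.91 and 8.03 and correlations between arrays between 0.942 and 0.976. Levels of different probe sets were not ordered against each other, since each responds with its own affinity. The mean of 8 measured T lymphocyte markers lay between 11.45 and 12.46 in every tumour. Single markers varied more: Cd3d, Cd3e and Thy1 were at 13.34, 12.05 and 14.01 at the lowest, while Cd2 was down to 7.92 in Hif1aKI/+ tumour 4 and Cd5 to 4.37, at background, in Hif1a+/- tumour 3.

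Of the 14 member probe sets, 7 had a mean above 4.41, and those 7 were above it in every tumour: both of Notch1, both of Notch3, the 1 of Notch2, and Adam10 1428103_at and 1450105_at. The other 7 had a mean below it: both of Notch4, both of Jag2, and the single probe sets of Jag1 and Dll1, and Adam10 1450104_at. Of the 3 member ligands, signal was above background only for Jag2, in 7 tumours at 1426430_at and 1 at 1426431_at.

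**Figure D1:**
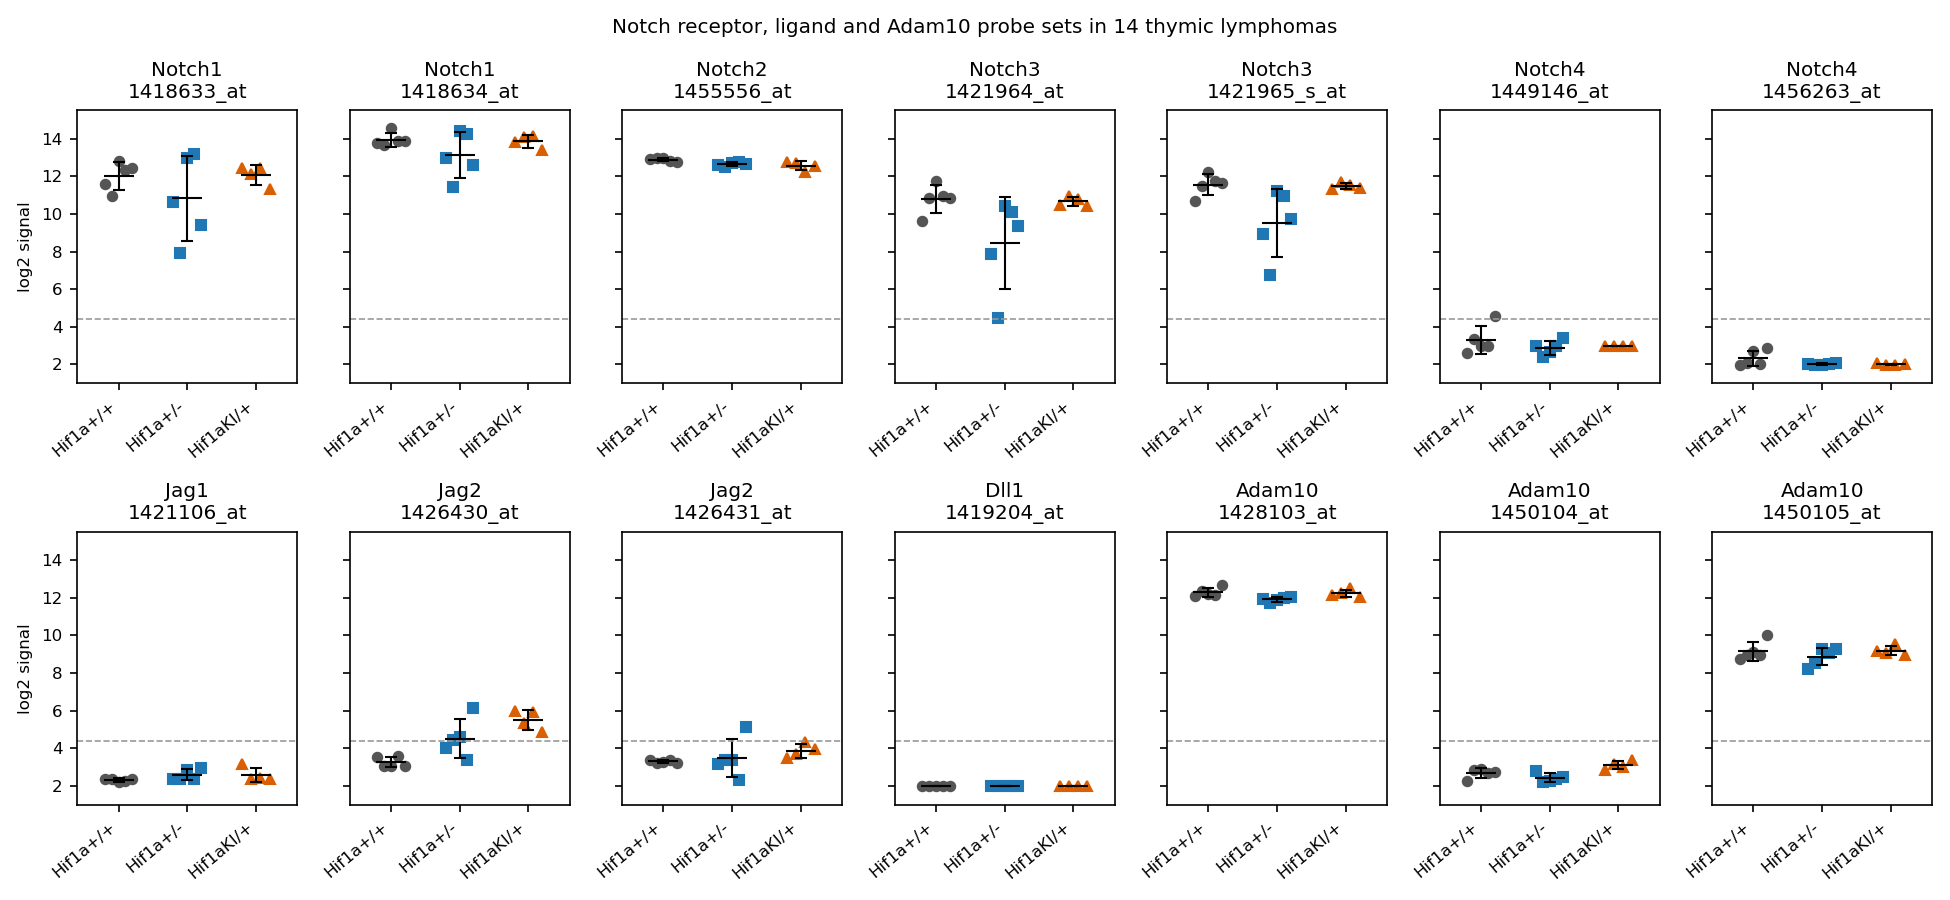
Log2 signal (vertical axis, the same scale in all panels) of each of the 14 probe sets in the 14 tumours by Hif1a genotype; points are tumours, long ticks are means and bars are SD between tumours, and the dashed line is the background limit of 4.41. The Hif1a+/- tumours are the most scattered for Notch1 and Notch3, and Jag2 1426430_at is above the line in all 4 Hif1aKI/+ tumours and in none of the Hif1a+/+ tumours.

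No member passed the threshold between genotypes. With limma, adjusted over all 18264 probe sets by the Benjamini-Hochberg method, 0 of 14 member probe sets had an adjusted p under 0.05 for Hif1a+/- against Hif1a+/+, for Hif1aKI/+ against Hif1a+/+, for Hif1a+/- against Hif1aKI/+, or in the F test over the 3 genotypes. The background is the same, with 0.0% of all probe sets called in each. Before adjustment, 5 of 14 members had p under 0.05 for Hif1a+/- against Hif1a+/+ (1 higher, 4 lower), beside 7.51% of all probe sets. For Hif1aKI/+ against Hif1a+/+ it was 3 of 14 (2 higher, 1 lower) beside 3.81%, for Hif1a+/- against Hif1aKI/+ 5 of 14 (all lower) beside 2.95%, and in the F test 5 of 14 beside 4.97%. Probe sets of 1 gene are not independent, so these counts stand for fewer genes than probe sets.

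The members lay lower in Hif1a+/- tumours than in Hif1a+/+ tumours for 11 of 14 probe sets, with a median log2 difference of -0.30, beside -0.0036 over all probe sets, of which 54.1% were lower. Against Hif1aKI/+ tumours, Hif1a+/- tumours were lower for 11 of 14, with a median of -0.35 beside -6.5e-05 over all and 50.4% of all lower. Hif1aKI/+ tumours were lower than Hif1a+/+ tumours for 8 of 14, with a median of -0.03 beside -0.0040 over all and 54.9% of all lower. The comparisons share groups, so they are not independent of each other, and the 14 probe sets stand for 8 genes. Some of them had both means at background, where differences have no readable size. For Hif1a+/- against Hif1a+/+ these were both of Notch4, Dll1 and Adam10 1450104_at, lower, and Jag1 and Jag2 1426431_at, higher. Against Hif1aKI/+ they were Notch4 1449146_at, Jag2 1426431_at, Dll1 and Adam10 1450104_at, lower, and Jag1 and Notch4 1456263_at, higher. The lowest adjusted p of any probe set on the array was 0.0894 for Hif1a+/- against Hif1a+/+.

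Counting probe sets whose 2 groups did not overlap at all gave 1 member for Hif1a+/- against Hif1a+/+, Adam10 1428103_at, where 1.34% of all probe sets did so. It gave 2 members for Hif1aKI/+ against Hif1a+/+, both Jag2 probe sets, beside 1.6% of all. For Hif1a+/- against Hif1aKI/+ it gave 2 members, Notch3 1421965_s_at and Adam10 1450104_at, beside 0.668% of all.

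**Figure D2:**
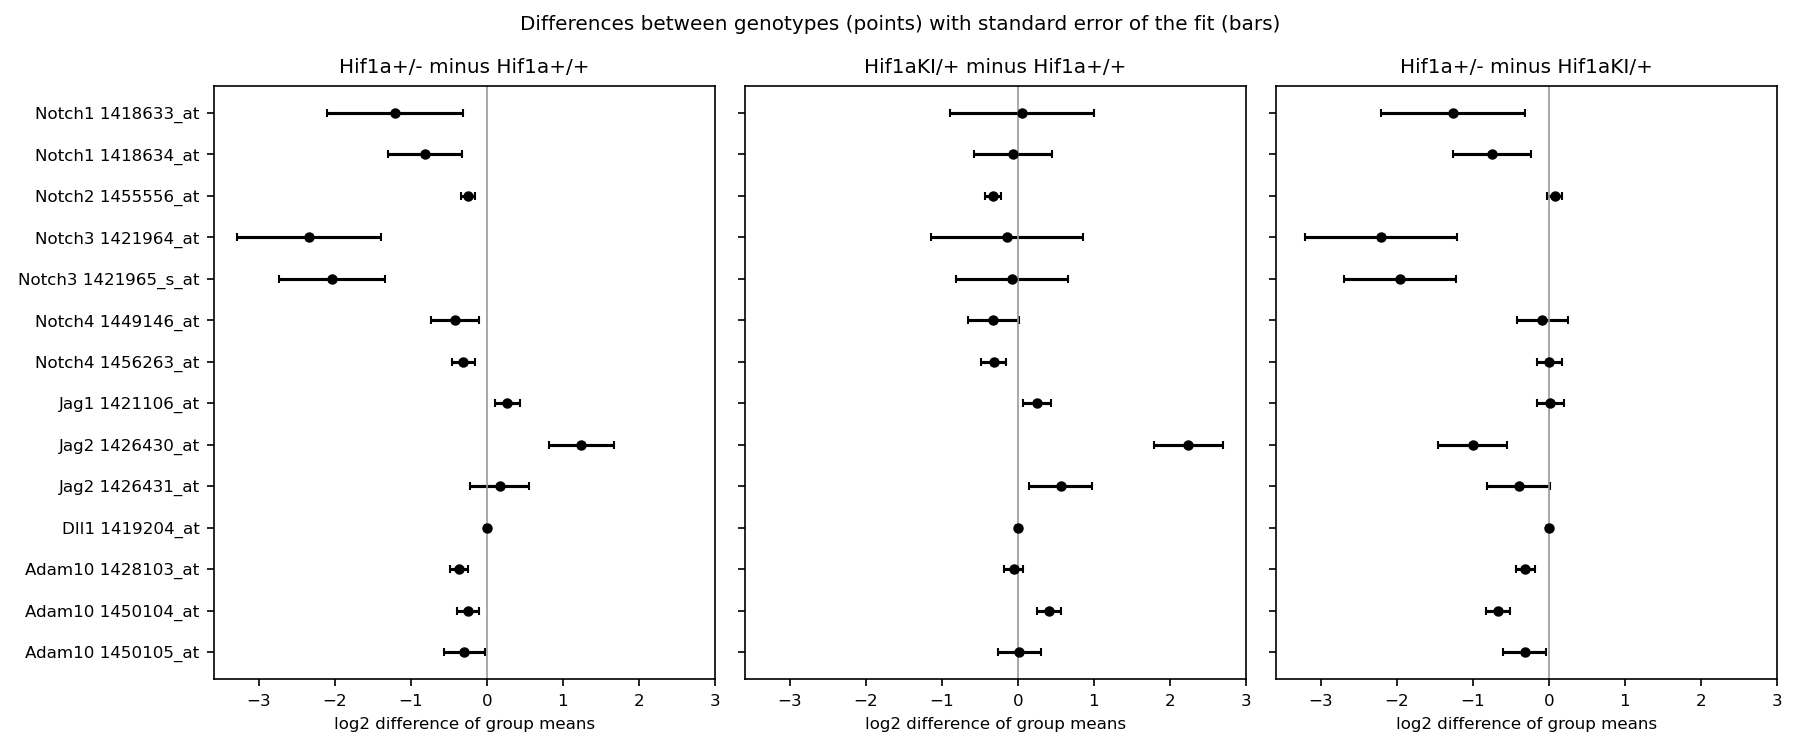
Difference of group means on the log2 scale (horizontal axis) for each member probe set (vertical axis) in the 3 comparisons; points are the limma estimates and bars their standard errors. Notch1 and Notch3 lie to the left in both panels with Hif1a+/- tumours and near 0 for Hif1aKI/+ minus Hif1a+/+, where Jag2 1426430_at stands at 2.25.

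Notch1, the receptor that drives T lineage entry, was measured by 2 probe sets, and the range over tumours came from 3 Hif1a+/- tumours. At 1418634_at the Hif1a+/- tumours gave 12.98, 11.40, 14.39, 14.22 and 12.59 (tumours 1 to 5). The Hif1aKI/+ tumours (1, 3, 4 and 5) gave 13.82, 14.09, 14.15 and 13.40, and the Hif1a+/+ tumours 13.77, 13.63, 14.54, 13.85 and 13.85. Hif1a+/- tumours 2, 5 and 1 were the lowest of the 14, in that order, while Hif1a+/- tumours 3 and 4 were among the 3 highest, so the group overlapped both others and spread from end to end.

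At Notch1 1418633_at the same tumours gave 10.63, 7.92, 12.95, 13.16 and 9.43 for Hif1a+/-, 12.43, 12.13, 12.44 and 11.31 for Hif1aKI/+, and 11.58, 10.95, 12.83, 12.34 and 12.42 for Hif1a+/+. The same 3 Hif1a+/- tumours were lowest, in the same order, and Hif1a+/- tumour 4 was the highest of all. From lowest to highest tumour the signal differed 37.7-fold at 1418633_at and 8.82-fold at 1418634_at.

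The SD between Hif1a+/- tumours at 1418633_at was 2.26 (n = 5), beside 0.75 (n = 5) in Hif1a+/+ and 0.53 (n = 4) in Hif1aKI/+ tumours. With that spread, the Notch1 difference between Hif1a+/- and Hif1a+/+ of -1.21 ± 0.90 (SE) at 1418633_at had a limma adjusted p of 0.788, and -0.81 ± 0.49 (SE) at 1418634_at an adjusted p of 0.740. Without Hif1a+/- tumour 2 the differences were -0.48 and -0.38. Hif1aKI/+ differed from Hif1a+/+ by 0.05 ± 0.95 (SE) and -0.07 ± 0.52 (SE), less than the spread between tumours. Their signs turn when single tumours are left out. The SE use a spread shared by all genotypes, so the wide Hif1a+/- group makes them larger than the SD of the groups compared would.

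The 2 Notch1 probe sets ordered the tumours nearly alike but did not span the same range. Over the 14 tumours they correlated with Pearson's r = 0.969 (permutation p = 1e-05, the smallest that 100000 resamples can give; Benjamini-Hochberg p over 7 pairs 3.5e-05) and Spearman's rho = 0.934. Without Hif1a+/- tumours 2 and 5, the farthest from the median, r was 0.885, and over deviations from genotype means it was 0.965. The SD at 1418633_at was 1.78 times that at 1418634_at.

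The difference between the Notch1 probe sets within an array, 1418634_at minus 1418633_at, was wider where Notch1 was low. It was 2.36, 3.48, 1.44, 1.06 and 3.16 in the Hif1a+/- tumours, 1.39, 1.96, 1.71 and 2.09 in the Hif1aKI/+ tumours, and 2.19, 2.68, 1.71, 1.51 and 1.43 in the Hif1a+/+ tumours. The widest values were those of Hif1a+/- tumours 2 and 5, which had the lowest Notch1 signal, and the narrowest that of Hif1a+/- tumour 4. This widening at low Notch1 follows from the larger SD at 1418633_at and the high correlation of the probe sets, and is not a separate result. The means were 2.30 ± 1.05 (SD, n = 5), 1.79 ± 0.31 (SD, n = 4) and 1.91 ± 0.52 (SD, n = 5).

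The groups overlapped in this difference, and the genotypes did not separate in it. The two-sided exact permutation test gave p = 0.452 for Hif1a+/- against Hif1a+/+ (0.39, 252 assignments), p = 0.706 for Hif1aKI/+ against Hif1a+/+ (-0.12, 126 assignments) and p = 0.373 for Hif1a+/- against Hif1aKI/+ (0.51, 126 assignments), with adjusted p of 0.679, 0.706 and 0.679 over the 3. The smallest p these group sizes allow is 0.00794. Where the probes of each set lie on the Notch1 transcript was not used here, so whether the sets read different transcript ends or forms was not tested.

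**Figure D3:**
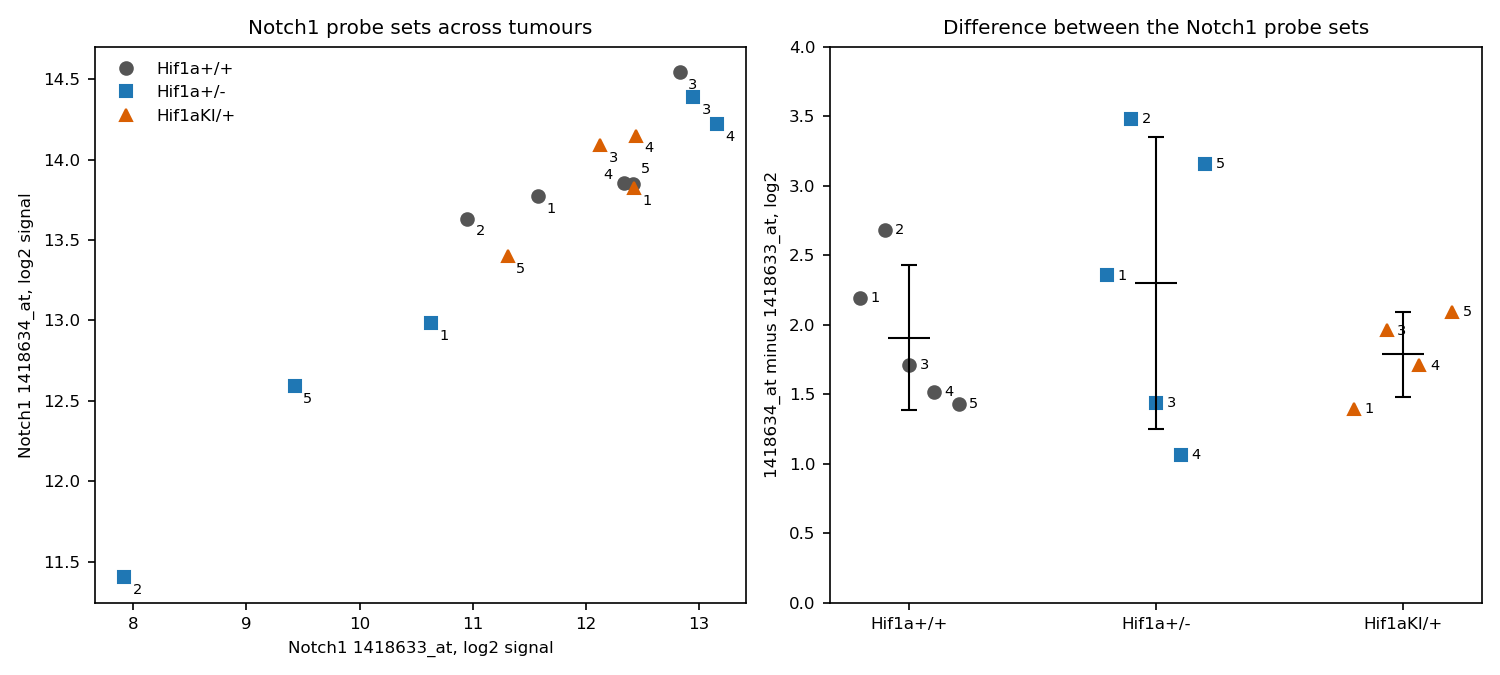
Left, log2 signal of Notch1 1418634_at (vertical) against 1418633_at (horizontal) in the 14 tumours; right, their difference within each array by genotype, with means (long ticks) and SD (bars), and tumour numbers beside the points. The points follow 1 line (r = 0.969), and the difference reaches 3.48 in Hif1a+/- tumour 2, which has the lowest value at both probe sets.

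Notch3, a receptor of immature thymocytes, had the widest range of the members. At 1421965_s_at the Hif1a+/- tumours gave 8.93, 6.78, 11.20, 10.95 and 9.74, the Hif1aKI/+ tumours 11.32, 11.69, 11.52 and 11.39, and the Hif1a+/+ tumours 10.66, 11.48, 12.24, 11.74 and 11.66. All 5 Hif1a+/- tumours were below all 4 Hif1aKI/+ tumours, and 3 of them (2, 1 and 5) were below all Hif1a+/+ tumours. The range over all tumours was 44.1-fold.

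At Notch3 1421964_at the values were 7.86, 4.48, 10.43, 10.10 and 9.38 in Hif1a+/-, 10.46, 10.94, 10.81 and 10.42 in Hif1aKI/+, and 9.62, 10.87, 11.72, 10.94 and 10.82 in Hif1a+/+ tumours. The order was much the same (r = 0.988 between the sets), and here Hif1a+/- tumour 2, at 4.48, stood just above background, 151.6-fold below the highest tumour. Hif1a+/- tumour 3 slightly exceeded Hif1aKI/+ tumour 5 at this probe set, so those groups overlapped.

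Hif1a+/- tumours lay lower than Hif1a+/+ tumours by -2.03 ± 0.70 (SE) on the log2 scale at Notch3 1421965_s_at, 4.10-fold, with an unadjusted limma p of 0.0131 and an adjusted p of 0.585. At 1421964_at the difference was -2.34 ± 0.94 (SE), with an adjusted p of 0.627. Against Hif1aKI/+ it was -1.96 ± 0.74 (SE) and -2.21 ± 1.002 (SE), both with an adjusted p of 0.999998. Hif1aKI/+ and Hif1a+/+ differed by -0.07 ± 0.74 (SE) and -0.14 ± 1.002 (SE). The shared spread in these SE includes the wide Hif1a+/- group. At 1421965_s_at its SD was 1.79, beside 0.58 in Hif1a+/+ and 0.16 in Hif1aKI/+ tumours. Hif1a+/- tumour 2 weighed on the differences of its group: without it the difference from Hif1a+/+ was -1.35 at each of the 2 probe sets. The mean of 9 fibroblast and vessel wall markers had medians of 9.71 in Hif1a+/+, 8.58 in Hif1a+/- and 9.01 in Hif1aKI/+ tumours. In Hif1a+/- tumours 1 to 5 that mean was 8.87, 9.01, 8.27, 8.32 and 8.58. The part of these cells in the Notch3 difference was not tested.

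Notch1 and Notch3 varied together. With the probe set of highest mean standing for each gene, r was 0.908 over the 14 tumours (permutation p = 0.00032, Benjamini-Hochberg p = 0.00896 over 28 pairs of members) and rho was 0.635 (adjusted p = 0.163). Without Hif1a+/- tumours 2 and 5, r was 0.685 (permutation p = 0.0176). Without Hif1a+/- tumour 2 alone it was 0.762, and its adjusted p 0.0896. Over deviations from genotype means r was 0.913. The values within genotypes were 0.95 for the 5 Hif1a+/-, 0.69 for the 5 Hif1a+/+ and 0.65 for the 4 Hif1aKI/+ tumours, given without a test.

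Among 7330 genes with a mean above background, the 3 most like Notch1 over the 14 tumours were Notch3, Lef1 (r = 0.881), a transcription factor of early T cells, and Ctage5 (r = 0.873). For Notch3 they were Pitpnm2 (r = 0.913), Notch1 and Strn4 (r = 0.888). These values are descriptions.

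Notch2, a receptor used by B cells among others, was nearly level. Its 1 probe set ran from 12.22 to 12.98, a range of 1.69-fold. The Hif1a+/- tumours gave 12.60, 12.48, 12.68, 12.78 and 12.66, the Hif1aKI/+ tumours 12.78, 12.73, 12.22 and 12.53, and the Hif1a+/+ tumours 12.93, 12.94, 12.98, 12.83 and 12.76. The 4 highest tumours were all Hif1a+/+, and the fifth Hif1a+/+ tumour fell among the others. The difference from Hif1a+/+ was -0.25 ± 0.098 (SE; limma unadjusted p of 0.0280, adjusted p of 0.623) in Hif1a+/- and -0.32 ± 0.10 (SE; unadjusted p of 0.0096, adjusted p of 0.99987) in Hif1aKI/+ tumours.

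Notch4, a receptor known from endothelium, stayed at background. At 1449146_at only Hif1a+/+ tumour 5, at 4.58, was above 4.41, and the other 13 lay between 2.41 and 3.43. At 1456263_at all were below it, from 1.99 to 2.85, with Hif1a+/+ tumours 5 and 3 highest. Differences between genotypes at this level have no readable size.

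Among the ligands, Jag2 was the member with the smallest p in any comparison. At 1426430_at the Hif1a+/+ tumours gave 3.55, 3.08, 3.05, 3.60 and 3.09, all at background. The Hif1aKI/+ tumours gave 5.97, 5.32, 5.93 and 4.86, all above it, and the Hif1a+/- tumours 4.04, 4.43, 4.60, 3.38 and 6.16, on both sides of it. Every Hif1aKI/+ tumour exceeded every Hif1a+/+ tumour, while the Hif1a+/- tumours overlapped both groups and included the highest of all, tumour 5.

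The Jag2 difference between Hif1aKI/+ and Hif1a+/+ at 1426430_at was 2.25 ± 0.46 (SE) on the log2 scale, 4.75-fold from a mean of 3.27 to a mean of 5.52. Its unadjusted p of 0.000372 was the fifth smallest of 18264, and its limma adjusted p was 0.99987. The lower mean is at background, so the fold is uncertain. Hif1a+/- lay above Hif1a+/+ by 1.25 ± 0.43 (SE; limma adjusted p of 0.585), or 0.84 without tumour 5, and differed from Hif1aKI/+ by -0.999 ± 0.46 (SE; adjusted p of 0.999998).

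Jag2 1426431_at gave 3.18, 3.36, 3.36, 2.34 and 5.11 in Hif1a+/-, 3.48, 3.68, 4.35 and 3.96 in Hif1aKI/+, and 3.36, 3.24, 3.30, 3.38 and 3.23 in Hif1a+/+ tumours. Only Hif1a+/- tumour 5 was above background. The Hif1aKI/+ tumours again exceeded all Hif1a+/+ tumours, by 0.56 ± 0.42 (SE; limma adjusted p of 0.99987). The 2 Jag2 probe sets correlated with r = 0.738 (permutation p = 0.00074, adjusted p = 0.0017) and rho = 0.793, and r was 0.739 without Hif1a+/- tumour 5 and Hif1aKI/+ tumour 1. Within genotypes r was 0.991 in Hif1a+/-, 0.906 in Hif1a+/+ and 0.002 in Hif1aKI/+ tumours, given without a test. The 2 probe sets thus did not order the Hif1aKI/+ tumours alike.

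Jag2 is made by thymic epithelium and endothelium as well as by lymphoid cells, so the markers of those cells are given beside it. The mean of 8 measured thymic epithelial markers of a list of 10 (6 with a mean above background, Cldn4 below it in every tumour) ran from 3.20 to 7.27 in Hif1a+/+, 5.53 to 7.75 in Hif1a+/- and 6.64 to 7.89 in Hif1aKI/+ tumours. It was 7.27 in Hif1a+/+ tumour 1, where Jag2 1426430_at was 3.55, and 6.53 in Hif1a+/- tumour 5, where Jag2 was 6.16. The mean of 10 endothelial markers (4 above background, with Cdh5, Kdr, Tie1 and Esam below it in every tumour) ran from 4.05 to 4.76 in Hif1a+/+, 3.62 to 5.04 in Hif1a+/- and 3.87 to 4.71 in Hif1aKI/+ tumours. It was highest in Hif1a+/- tumour 5, and it was 4.76 in Hif1a+/+ tumour 5, where Jag2 was 3.09. The thymic epithelial medians were 4.65 in Hif1a+/+, 6.56 in Hif1a+/- and 7.20 in Hif1aKI/+ tumours, so these markers, like Jag2, were higher in the Hif1aKI/+ group. Hif1a+/+ tumours 3, 4 and 5 had the lowest means, 3.20, 3.70 and 4.65. The part of either cell type in the Jag2 difference was not tested.

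**Figure D4:**
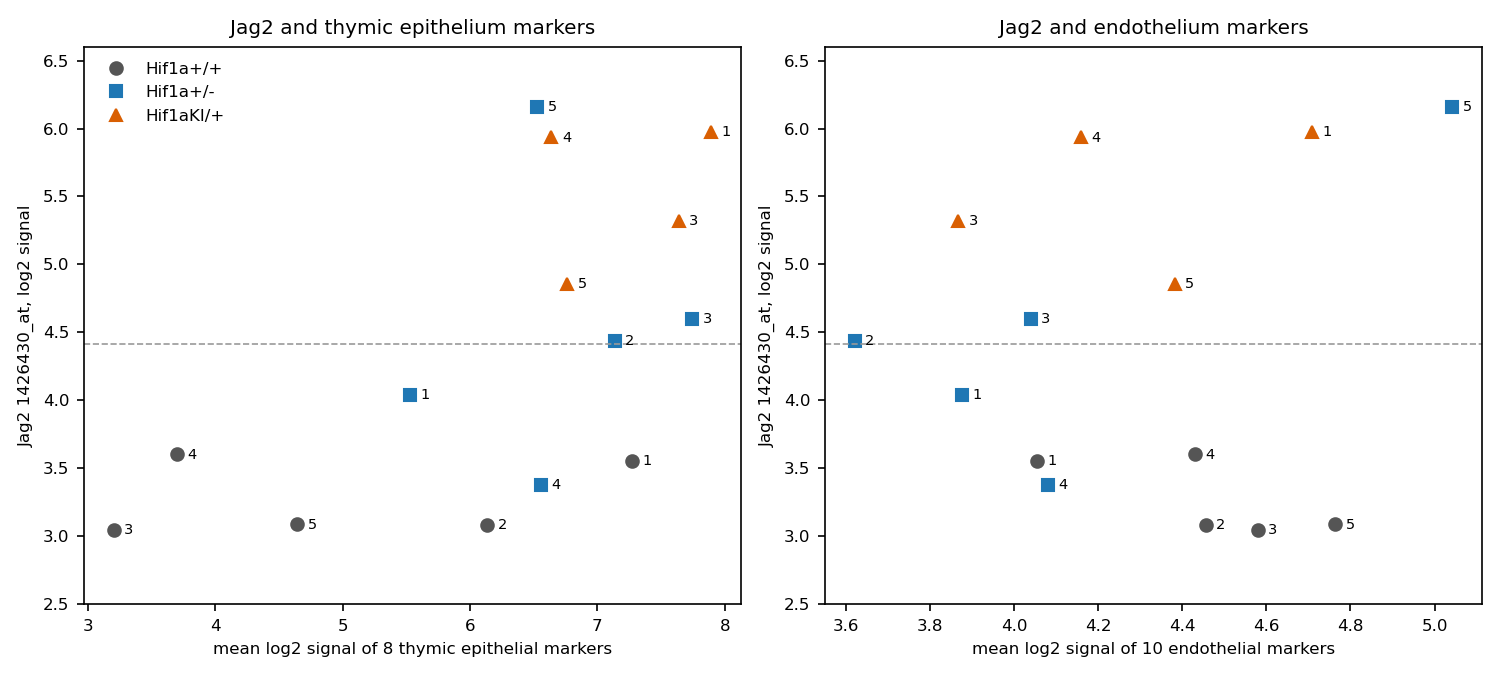
Log2 signal of Jag2 1426430_at (vertical) against the mean log2 signal of 8 thymic epithelial markers (left) and 10 endothelial markers (right); points are tumours, numbered within genotype, and the dashed line is the background limit of 4.41. All 4 Hif1aKI/+ tumours lie above the line; Hif1a+/+ tumour 1 has an epithelial mean of 7.27 and lies below it.

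The other ligands among the members, Jag1 and Dll1, were at background. Jag1 1421106_at ran from 2.20 to 3.15, with Hif1aKI/+ tumour 1 highest, and Dll1 1419204_at stayed within 0.01 of 1.99. Dll3 and Dll4, further Delta-like genes on the array, had means of 2.07 and 2.08 with no tumour above 2.10. Dlk1, a Delta-like homologue, had a mean of 3.25 but stood above background in 3 tumours, at 6.38 and 6.99 in Hif1a+/- tumours 1 and 2 and 8.13 in Hif1aKI/+ tumour 5. Dll4 is the Notch1 ligand of normal thymic epithelium, and its probe set was at background also in the tumours with the highest epithelial marker means. A probe set at background does not show that a transcript is absent.

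Adam10, the protease that makes the first cut in a ligand-bound receptor, varied little. At 1428103_at the Hif1a+/- tumours gave 11.92, 11.72, 11.90, 12.01 and 12.06, the Hif1aKI/+ tumours 12.14, 12.24, 12.50 and 12.05, and the Hif1a+/+ tumours 12.10, 12.37, 12.17, 12.13 and 12.66. All Hif1a+/- tumours were below all Hif1a+/+ tumours, by a narrow margin (12.06 against 12.10), and the whole range was 1.92-fold. The difference was -0.36 ± 0.12 (SE), 1.29-fold, with an unadjusted limma p of 0.0103 and an adjusted p of 0.565. From Hif1aKI/+ it was -0.31 ± 0.13 (SE; limma adjusted p of 0.999998).

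At Adam10 1450105_at the values ran from 8.23 to 9.26 in Hif1a+/-, 8.98 to 9.54 in Hif1aKI/+ and 8.72 to 10.03 in Hif1a+/+ tumours, and the groups overlapped, with -0.29 ± 0.27 (SE; limma adjusted p of 0.809) between Hif1a+/- and Hif1a+/+. Its correlation with 1428103_at, r = 0.749 (permutation p = 0.0029, adjusted p = 0.0051), rests on Hif1a+/- tumour 2 and Hif1a+/+ tumour 5: without them r was 0.470 (permutation p = 0.124), and rho over all was 0.459.

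Adam10 1450104_at was at background in every tumour, from 2.21 to 3.37. Its difference between Hif1a+/- and Hif1aKI/+, -0.66 ± 0.16 (SE; limma unadjusted p of 0.00121, adjusted p of 0.999998), is between means of 2.44 and 3.10 and has no readable size. The genes most like Adam10 at 1428103_at were Arcn1, a coat protein of vesicle traffic (r = 0.795), Nid1, a basement membrane protein (r = 0.787), and Limd1 (r = 0.774).

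No gene of the rest of the pathway passed either threshold. Of a list of 42 further genes of ligand handling, cleavage, nuclear complex and turnover, 32 were measured, 9 of them with a mean below background. None of the 32 had an adjusted p under 0.05, and none an unadjusted p under 0.05, in any of the 3 comparisons (limma). Of the 32, 22 were lower in Hif1a+/- than in Hif1a+/+ tumours, beside 54.1% of all probe sets, with a median difference of -0.023 beside -0.0038 over 1 probe set of each of 10254 genes. Hif1aKI/+ tumours were lower than Hif1a+/+ tumours for 20, beside 54.9% of all, with a median of -0.018 beside -0.0024. Hif1a+/- tumours were lower than Hif1aKI/+ tumours for 16, beside 50.4% of all, with a median of -0.00011 beside -0.0012.

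The smallest p in that list belonged to Mib2, a ligand ubiquitin ligase (0.70 ± 0.44 SE), Furin, which processes new receptors (-0.72 ± 0.46 SE), and Aph1a, a gamma-secretase subunit (-0.48 ± 0.31 SE), for Hif1a+/- against Hif1a+/+. For Hif1aKI/+ against Hif1a+/+ they were Psen2, a catalytic gamma-secretase subunit (-0.72 ± 0.37 SE), Poglut1, which adds glucose to receptors (0.61 ± 0.32 SE), and Furin (-0.86 ± 0.49 SE). For Hif1a+/- against Hif1aKI/+ they were Poglut1 (-0.68 ± 0.32 SE), Mfng, a Fringe glycosyltransferase (-0.44 ± 0.23 SE), and Itch, a ubiquitin ligase (-0.14 ± 0.09 SE).

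Of the Notch target genes, 10 of 11 lay lower in Hif1a+/- than in Hif1a+/+ tumours, beside 54.1% of all probe sets, without passing the threshold. Of 12 listed, 11 were measured, and none passed the adjusted threshold. Among the 10, Hes5 and Igf1r had both means at background, where differences have no readable size, and Hey1 differed by only -0.05. At an unadjusted p under 0.05, 1 was higher and 5 were lower in Hif1a+/- than in Hif1a+/+ tumours, beside 4.09% and 3.42% of all probe sets. In Hif1aKI/+ against Hif1a+/+, 1 was higher and 2 were lower, beside 2.27% and 1.54% of all. Igf1r, at background, is counted among the lower genes in both of these comparisons. In Hif1a+/- against Hif1aKI/+, 1 was lower, beside 1.40% of all. The median differences were -1.33, -1.24 and -0.04, beside -0.0038, -0.0024 and -0.0012 over 1 probe set of each of 10254 genes.

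Ptcra, the pre-T cell receptor alpha chain, was lowest in the 3 tumours with the lowest Notch1. It gave 9.78, 9.52, 12.74, 12.12 and 8.61 in Hif1a+/-, 12.58, 12.45, 12.37 and 12.72 in Hif1aKI/+, and 12.32, 12.34, 13.19, 11.64 and 13.16 in Hif1a+/+ tumours. Hif1a+/- tumours 5, 2 and 1 lay below the other 11, which began at 11.64. The difference between Hif1a+/- and Hif1aKI/+ was -1.98 ± 0.74 (SE; limma unadjusted p of 0.0213, adjusted p of 0.999998).

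Dtx1, a ubiquitin ligase and direct Notch target, was at background in Hif1a+/- tumours 5 and 2, at 1.90 and 2.62, and at 8.37 or more in the other 12. Hes1, a repressor induced by Notch, was lowest in Hif1a+/- tumours 5, 2 and 1, at 2.02, 2.56 and 3.87, all at background. It was at background also in Hif1aKI/+ tumours 3 and 1, at 3.90 and 4.23, where Notch1 1418634_at was 14.09 and 13.82. The highest Hes1 value was 9.02. Ptcra, Dtx1 and Hes1 are described here after their values were seen, and not every target ordered the tumours that way.

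Nrarp, a feedback inhibitor of Notch, was lowest in Hif1aKI/+ tumour 4, at 4.63, and Hif1a+/+ tumour 2, at 6.09, and stood at 6.21, 7.08 and 8.65 in Hif1a+/- tumours 5, 2 and 1. Heyl, a repressor of the Hes family, was lowest in Hif1a+/- tumour 2 and Hif1aKI/+ tumour 4, at 1.99 and 2.01, but had 6.08 and 5.51 in Hif1a+/- tumours 1 and 5. Hey1, of the same family, ran from 4.49 to 5.99, with 5.44 in Hif1a+/- tumour 5. Myc, a growth regulator, was lowest in Hif1a+/- tumour 5, at 9.45, while Hif1a+/- tumours 2 and 1 had 11.30 and 11.35, above Hif1a+/+ tumours 4 and 3 at 10.69 and 11.09.

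In Hif1a+/- tumours 1, 2 and 5 the T lymphocyte marker mean was 12.37, 12.42 and 12.46, beside 11.83 to 12.44 in Hif1a+/+ tumours, but Cd3e was lowest of the 14 in Hif1a+/- tumour 2, at 12.05. The mean of 3 B lymphocyte markers was highest of the 14 in Hif1a+/- tumour 2, at 6.38, beside 2.55 and 2.37 in tumours 1 and 5 and up to 5.82 elsewhere. The mean of 7 macrophage markers was 7.54, 7.28, 8.26, 7.90 and 6.89 in Hif1a+/- tumours 1 to 5. It was 7.96 to 10.23 in Hif1a+/+ and 6.74 to 8.41 in Hif1aKI/+ tumours. Hif1a+/- tumours 1, 2 and 5, and also 4, where Notch1 1418634_at was 14.22, lay below all Hif1a+/+ tumours. The lowest mean, 6.74, was that of Hif1aKI/+ tumour 4, where Notch1 1418634_at was 14.15. The part of these cells in the low Notch1 values was not tested.

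Other targets followed a different order. Il2ra, the interleukin-2 receptor alpha chain of immature thymocytes, gave 6.90, 8.26, 11.42, 9.93 and 2.14 in the Hif1a+/+ tumours, and was above 4.41 in only 1 other tumour, Hif1a+/- tumour 1 at 6.29. Its difference from Hif1a+/+ was -4.37 ± 1.47 (SE) in Hif1a+/- and -5.32 ± 1.56 (SE) in Hif1aKI/+ tumours, with limma adjusted p of 0.577 and 0.99987. Igf1r, a growth factor receptor, was at 2.14 to 2.42 in every Hif1a+/- and Hif1aKI/+ tumour and at 2.19 to 4.94 in Hif1a+/+ tumours, of which 1 was above 4.41, so its difference has no readable size. Ccnd3, a G1 cyclin, went the other way, by 0.71 ± 0.23 (SE) in Hif1a+/- and 0.59 ± 0.24 (SE) in Hif1aKI/+ tumours.

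**Figure D5:**
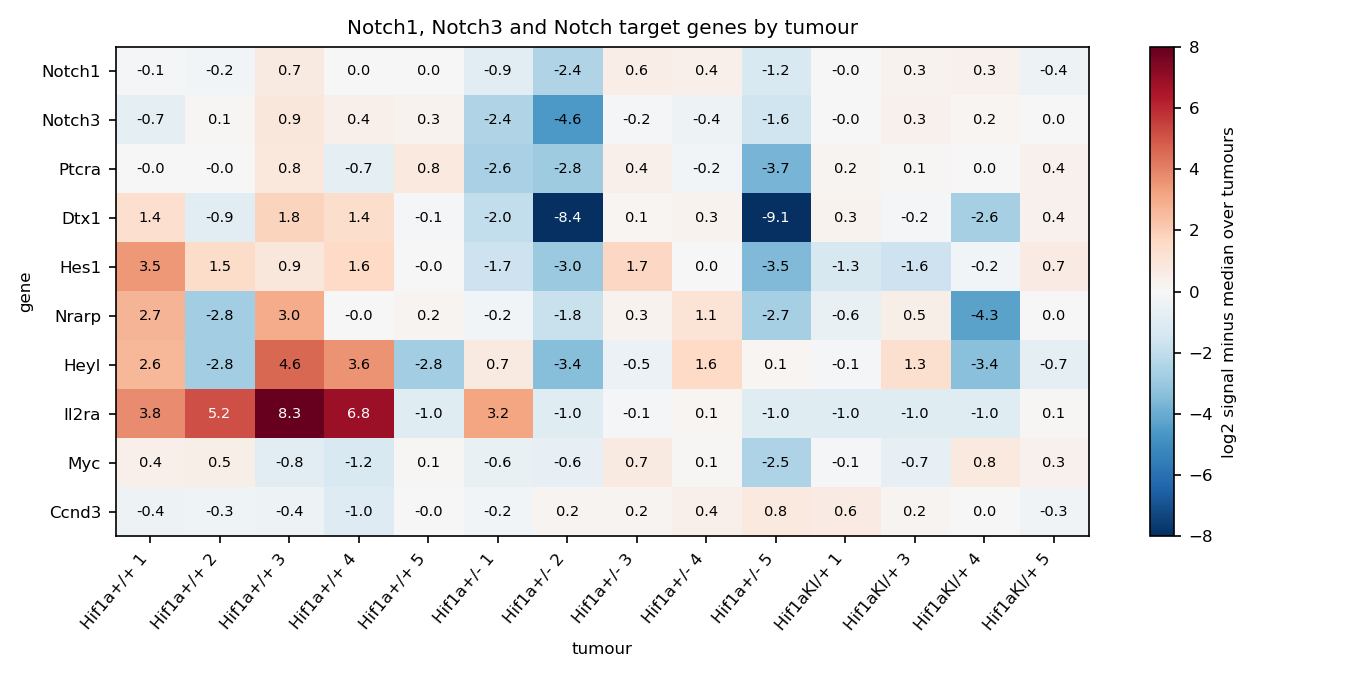
Log2 signal minus the gene's median over the 14 tumours (colour and printed value) for Notch1, Notch3 and 8 target genes (rows) in each tumour (columns). The colour scale ends at 8. The other measured targets, Hey1, Hes5 and Igf1r, are not shown. Notch1, Notch3, Ptcra, Dtx1 and Hes1 are all below their medians in Hif1a+/- tumours 1, 2 and 5, whereas Il2ra is high in 4 Hif1a+/+ tumours and Hif1a+/- tumour 1.

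The 11 targets' deviations were averaged without scaling, so targets of wide range, such as Dtx1, Il2ra, Heyl and Nrarp, weigh most. Hes5 (2.10 to 2.56) and Igf1r, with means at background, weigh less. The mean of the deviations was lowest in Hif1a+/- tumours 5 and 2, at -1.90 and -1.86. It was highest in Hif1a+/+ tumours 3 and 1, at 1.85 and 1.54. Of the 8 members, 4 correlated with it at an adjusted p under 0.05 over the 8: Notch1 (r = 0.709, permutation p = 0.0039, adjusted p = 0.0240, rho = 0.596), Notch2 (r = 0.694, permutation p = 0.0060, adjusted p = 0.0240, rho = 0.754), Notch3 (r = 0.639, permutation p = 0.013, adjusted p = 0.0345, rho = 0.459) and Jag2 (r = -0.623, permutation p = 0.0172, adjusted p = 0.0345, rho = -0.662).

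The Notch1 relation rests on Hif1a+/- tumours 2 and 5, without which r was 0.302. Without the 2 farthest tumours of each gene, r was 0.634 for Notch2, 0.540 for Notch3 and -0.54 for Jag2. Over deviations from genotype means it was 0.697 for Notch1, 0.529 for Notch2, 0.528 for Notch3 and -0.50 for Jag2, and only Notch1 kept an adjusted p under 0.05 (0.0237), the other 3 each having 0.128. Within genotypes the values ran from -0.69 (Hif1aKI/+) to 0.90 (Hif1a+/-) for Notch1, from -0.14 (Hif1aKI/+) to 0.73 (Hif1a+/-) for Notch3 and from -0.71 (Hif1aKI/+) to 0.34 (Hif1a+/+) for Jag2, so their signs differ between genotypes, while for Notch2 they were 0.645 to 0.770, all given without a test. Of the 28 pairs of members, besides Notch1 and Notch3 only Notch4 and Adam10 passed (r = 0.745, adjusted p = 0.0277, rho = 0.521). That pair rests on Hif1a+/- tumour 2 and Hif1a+/+ tumour 5, without which r was 0.316, and Notch4 was at background.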

How the data were processed

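Expression was measured in 14 tumours on 1 Affymetrix array each, from 100 ng of total RNA amplified and labelled with biotin, per the labels' protocols. The authors made 1 log2 value per probe set and tumour with GCRMA and Partek, per the submitters' processing notes, which give no versions; GCRMA corrects probes for background by sequence and normalizes the arrays. Scanner intensities were not analysed here, and a build for the probe annotation was not given in the sources used. Precision is limited by the number of arrays.

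All 18264 probe sets were fitted with limma 3.58.1 in R 4.3.3, with a mean per genotype over all 14 arrays and default moderation (11 residual degrees of freedom), and p-values were adjusted over all of them by the Benjamini-Hochberg method. The fit was tested on simulated data. A difference carries its standard error from the fit (SE) and a mean its SD between tumours. The fit takes the spread as equal in all genotypes, which Notch1 and Notch3 did not have. Correlations used 100000 permutations, and the Notch1 probe set difference an exact permutation test (python 3.11.15, scipy 1.17.1). No filter on level was applied in the main fit, while the genes most correlated with a member were sought only among genes with a mean above background. For counts over genes, and for correlations between genes, the probe set of highest mean stood for a gene. The limma p-values weigh a difference against the spread between tumours within genotypes, and the permutation p-values come from reshuffling the tumours.

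Named genes are all members, the 3 genes of smallest p per comparison in a pathway list and a target list, and the 3 genes most correlated with Notch1, Notch3 and Adam10. Beyond that rule, tumour values of Dll3, Dll4, Dlk1, Dtx1, Hes1, Hes5, Nrarp, Heyl, Hey1, Myc, Cd2, Cd3e and Cd5 were chosen after their values were seen. The members and lists were chosen with earlier results of these data known. Groups share replicate numbers in the labels, but same-numbered tumours did not deviate together over all probe sets. The mean correlation of deviations was -0.010 over 13 pairs, from -0.087 to 0.075. The main fit therefore did not pair them, though this check cannot exclude a pairing that touches few genes. Promoters and gene positions are from RefSeq, GRCm38.p6. Alternatives covered normalization, centring, a filter on level, moderation, weights for arrays, separate fits of each pair of groups, 1 value per gene, the replicate number as a block, a threshold of 0.1 and leaving out each tumour.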

Additional observations from a re-analysis of the deposited data

Results flagged for a closer look

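In 42 groups of 4 or 5 tumours, 1 group for each member probe set and genotype, a tumour was marked where its gap to the nearest other tumour was large against the range of the group; chance marks about 5% of such groups. Hif1a+/+ tumour 3 stood above its group at Notch1 1418634_at with a log2 signal of 14.54, where the next tumour had 13.85, a gap of 0.758 of the range. At Jag1 1421106_at, Hif1aKI/+ tumour 1 had 3.15 where the next had 2.40, a gap of 0.947 of the range, with all values at background. The low Hif1a+/- tumours at Notch1 and Notch3 were not marked, since their group is spread over its whole range.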

How the results depend on the processing

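No member probe set passed an adjusted p of 0.05 under any alternative run, and none passed at 0.1. The signs of differences near 0 between Hif1aKI/+ and Hif1a+/+ were not stable. Adam10 1450105_at, 0.02 in the main analysis, was -0.011 after quantile normalization, -0.015 after centring, -0.011 with array weights and -0.045 with the replicate block, and ran from -0.098 to 0.24 when single tumours were left out. Notch1 1418633_at, 0.05, was -0.20 with array weights and -0.44 with the replicate block, and ran from -0.21 to 0.31. The difference of the Notch1 probe sets, -0.12, was 0.074 with the replicate block and ran from -0.24 to 0.074. Leaving out single tumours gave -0.16 to 0.090 for Notch1 1418634_at, -0.43 to 0.10 for Notch3 1421964_at, -0.30 to 0.10 for Notch3 1421965_s_at and -0.14 to 0.043 for Adam10 1428103_at. It gave -0.24 to 0.45 for Jag2 1426431_at between Hif1a+/- and Hif1a+/+, the lowest without Hif1a+/- tumour 5, and -0.039 to 0.15 for Notch2 between Hif1a+/- and Hif1aKI/+. By comparison, Jag2 1426430_at between Hif1aKI/+ and Hif1a+/+ ran from 2.10 to 2.47. The block changed no call.

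Counts of correlations with an adjusted p under 0.05 depended on single tumours. Within genes they were 5 of 7 and ran from 3 (without Hif1a+/+ tumour 5) to 6. The 5 include the pair of Notch4 probe sets, both with a mean at background (r = 0.702, permutation adjusted p = 0.0243). Without Hif1a+/- tumour 2 and Hif1a+/+ tumour 5, r of that pair was 0.117. Between members they were 2 of 28, 1 after quantile normalization, and ran from 0 (without Hif1a+/- tumour 2) to 3, with 1 without Hif1a+/+ tumour 2 or 5. With the target mean they were 4 of 8, 1 over deviations from genotype means, and ran from 0 (without Hif1a+/+ tumour 3) to 4, with 1 without Hif1a+/- tumour 2 or 5 and 2 without Hif1a+/+ tumour 4. The cause was not tested. Alternatives of background correction were not run, since scanner intensities were not analysed here, and the mean over a gene's probe sets gave counts of calls only. Signal at background limits what can be read from Notch4, Jag1, Dll1, Adam10 1450104_at and, in Hif1a+/+ tumours, Jag2.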
